A study of Mus musculus with 12 samples.

Results

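The 10 genes of fibroblast growth factor (FGF) signaling described here were measured from pluripotency to the mesendoderm: the ligands Fgf3, Fgf4, Fgf8, Fgf10, Fgf15 and Fgf17, the receptors Fgfr1 and Fgfr2, and the feedback inhibitors Spry4 and Dusp6. Members were taken as the loci of the deposited transcript annotation that carry these gene names on transcripts matching a reference transcript, which gave 10 of the 80012 counted loci, each found once, and all 10 were among the 17922 loci tested. RNA was sequenced from 12 mouse libraries, 4 in each of 3 groups. ESC libraries came from undifferentiated embryonic stem cells at day 0, grown with serum and leukemia inhibitory factor on a layer of embryonic fibroblasts, called feeders. Eo+ and Eo- libraries came from embryoid bodies, cell aggregates that start to differentiate in hanging drops, which were dissociated at day 3 and sorted by fluorescence. Every group derives from a single C57BL/6 ESC line that carries EGFP at the start site of its own Eomes gene, so that Eo+ cells have the reporter on and Eo- cells do not, and the controls carry the same altered allele. Replicates bear the numbers 1, 2, 5 and 6 in each group, and the study describes 4 differentiation sets. Locus counts ranged from 648413022 to 837308168 per library, so that 3 counts amounted to at most 0.00467 CPM (counts per 1000000 of the library's TMM-scaled total). These totals exceed the read numbers stated in the labels, so that a count may stand for 1 mate of a read pair, in which case 3 counts are fewer than 3 fragments.

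Most FGFs are secreted proteins that bind receptor tyrosine kinases together with heparan sulfate, a sugar chain of the cell surface. The receptors relay the signal through Ras and the kinases Raf, Mek and Erk, and Erk in turn switches on genes that damp the pathway, among them Sprouty proteins such as Spry4 and phosphatases such as Dusp6. In the early mouse embryo Fgf4 is made by pluripotent cells, whereas Fgf8 and Fgfr1 are required for cells to leave the primitive streak and form mesoderm.

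The sort was checked on Eomes, the T-box factor that carries the reporter, which had 36.5 to 57.2 CPM in ESC, 116 to 168 CPM in Eo- and 446 to 641 CPM in Eo+ libraries. Eo- cells are thus not free of Eomes RNA. All 9 mesendoderm markers, Eomes among them, were called higher in Eo+ than in Eo- cells, and 8 of 9 pluripotency genes were lower in Eo+ cells than in ESCs.

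All 8 members with a locus of their own changed between Eo+ cells and ESCs, as did the loci in which Fgf17 and Fgfr2 are joined with other genes. Fgf3, Fgf10, Fgf8 and Fgf15 were higher in Eo+ cells, whereas Fgf4 and the Fgf17 locus were lower. Fgfr1 and Dusp6 were higher, and Spry4 and the Fgfr2 locus lower. All 10 members passed the test in Eo+ vs ESC, 6 higher and 4 lower, where 71.9% of all tested loci passed in either direction, 35.8% higher and 36.1% lower. In Eo- vs ESC 7 of 10 passed, 3 higher and 4 lower, against 62.2% of all loci (30.9% higher and 31.3% lower). In Eo+ vs Eo- again all 10 passed, 7 higher and 3 lower, against 47.7% of all loci (23.0% higher and 24.6% lower). The test was limma-voom with Benjamini-Hochberg adjustment over the 17922 loci, and a locus passed at an adjusted p of at most 0.05. The median absolute log2 fold change of the members was 1.69, 0.95 and 0.69 in the 3 comparisons, beside 0.68, 0.51 and 0.36 over all tested loci. Comparisons that share a group are not independent of each other. Leaving out Eo- replicate 5 reduced the 10 calls of Eo+ vs Eo- to 6, with Fgf8, Fgf15, Fgfr1 and Spry4 no longer past the threshold.

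**Figure D1:**
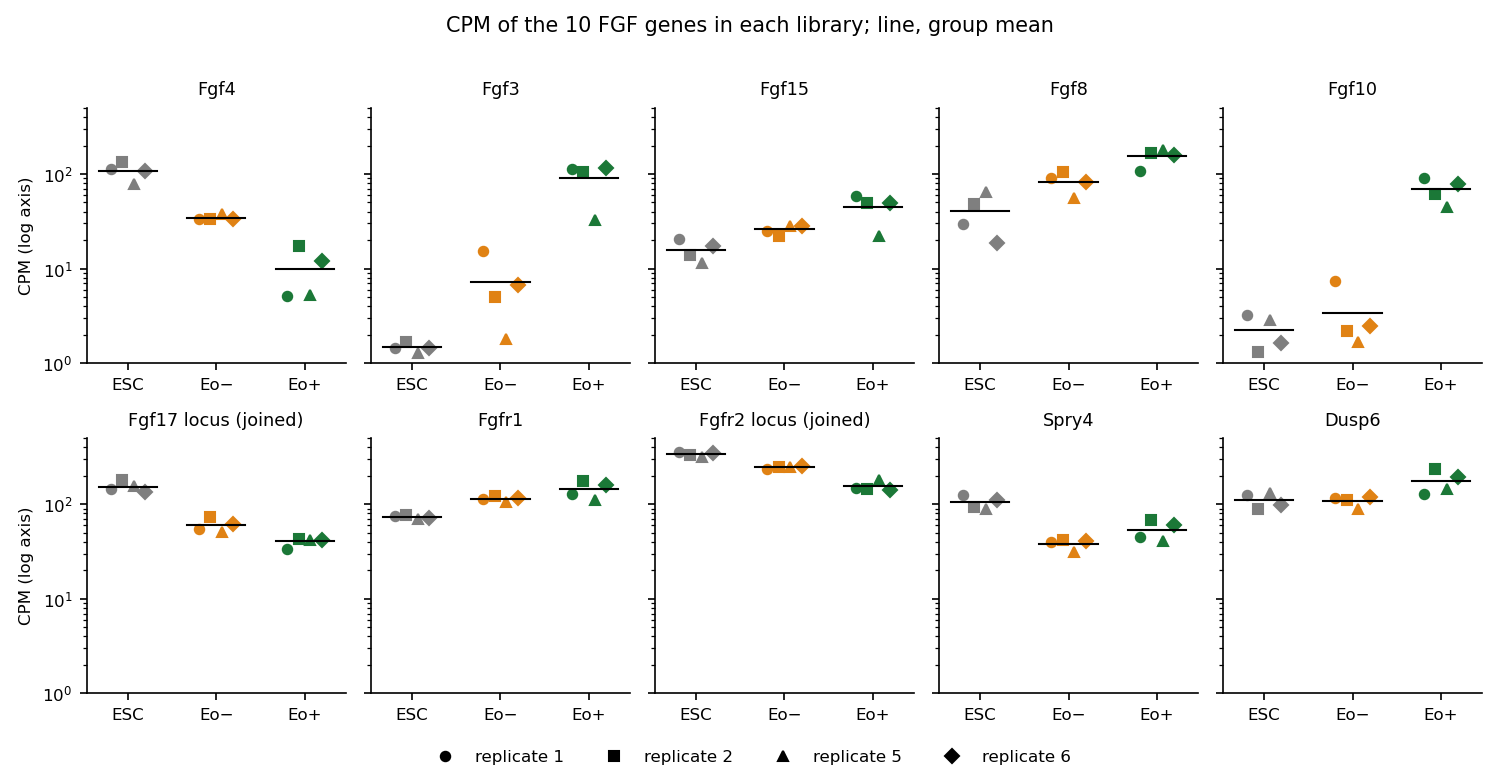
CPM of each member (log axis) in the 12 libraries by group, with 1 symbol for each replicate number and a line at the group mean. Fgf3 and Fgf10 lie between 32.5 and 116 CPM in Eo+ cells and at most at 15.3 CPM elsewhere, and Fgf4 runs the opposite way from 108 to 9.90 CPM on average.

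Taking the comparisons in the same order, 9, 6 and 7 members were called without any overlap between the libraries of the groups, beside 63.7%, 54.2% and 41.2% of all loci. A change of at least 2-fold was called for 7, 4 and 3 members, beside 38.1%, 28.3% and 21.1% of all loci. Assembly had joined a pair of members with other genes, and their counts cannot be assigned to the member: the locus of Fgf17 also holds Dmtn and Fam160b2, and that of Fgfr2 also holds Ctbp2, an abundant corepressor, and Gm15718. Over the other 8 members the counts were 8 of 8, 5 of 8 and 8 of 8. RNA of sorted populations was measured in bulk, so that fewer cells expressing a gene and less RNA per cell cannot be told apart.

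Fgf4, the FGF of pluripotent cells that starts their exit from self-renewal, was highest in ESCs. In mm10 its locus (XLOC_063384) lies on chromosome 7, plus strand, between 144860623 and 144865673. ESC replicates 1, 2, 5 and 6 had 112, 135, 78.4 and 106 CPM of Fgf4. Eo- replicates had 33, 33.6, 37.3 and 33.2 CPM, and Eo+ replicates 5.08, 17.3, 5.26 and 11.9 CPM. The 3 groups formed separate ranges, in the order ESC, Eo- and Eo+. From ESC to Eo- cells Fgf4 fell by 1.63 ± 0.22 on the log2 scale (SE; adjusted p = 2.86e-05), and from ESC to Eo+ cells by 3.62 ± 0.30 (adjusted p = 1.21e-07). The fractions differed from each other as well, with Fgf4 in Eo+ cells lower than in Eo- cells by a log2 fold change of -1.99 ± 0.31 (adjusted p = 0.000162) and in all 4 same-numbered pairs.

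Fgf3 lies on the same strand 11.5 kb upstream of Fgf4 and behaved in the opposite way. The Fgf3 locus (XLOC_063382, chromosome 7, positions 144837497 to 144849161) had 1.44, 1.69, 1.29 and 1.45 CPM in the ESC libraries. In Eo- cells Fgf3 had 15.3, 5.00, 1.79 and 6.69 CPM, and in Eo+ cells 113, 105, 32.5 and 116 CPM. Eo+ libraries lay far above all others, with replicate 5 the lowest of the 4. Fgf3, known for its part in ear and tail formation, rose 56.1-fold in Eo+ vs ESC (log2 fold change 5.81 ± 0.74, adjusted p = 8.40e-06) and 14.6-fold in Eo+ vs Eo- (3.87 ± 0.57, adjusted p = 0.000112). Between Eo- cells and ESCs the Fgf3 libraries did not overlap, yet the log2 fold change of 1.94 ± 0.86 did not pass (adjusted p = 0.0641). For this gene the call depended on the fit, since edgeR's quasi-likelihood test gave an adjusted p of 0.00197 and DESeq2 9.31e-05, with log2 fold changes of 2.30 and 2.24, and limma without Eo- replicate 5 gave an adjusted p of 0.0196. It also passed in limma with only the ESC and Eo- libraries (adjusted p = 0.0109), with a replicate block (0.000211) and with both together (0.00111), so that 6 of 17 alternatives called it.

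The 250 bases before the RefSeq start sites of Fgf4 and Fgf3, which lie close together and moved in opposite directions, and of Fgf10, which rose together with Fgf3, are given below from RefSeq on GRCm38.p6, 5′ to 3′ on the strand of the gene. The windows are chr7:144861136-144861385 for Fgf4, chr7:144838362-144838611 for Fgf3 and chr13:118714449-118714698 for Fgf10, all on the plus strand. Capitals mark matches on either strand to any of 5 short motifs.
Fgf4: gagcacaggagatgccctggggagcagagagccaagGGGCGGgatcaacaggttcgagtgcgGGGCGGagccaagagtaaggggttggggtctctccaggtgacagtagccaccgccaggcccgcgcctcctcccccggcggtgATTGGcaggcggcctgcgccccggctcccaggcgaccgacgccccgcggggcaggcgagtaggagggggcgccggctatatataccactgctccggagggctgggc
Fgf3: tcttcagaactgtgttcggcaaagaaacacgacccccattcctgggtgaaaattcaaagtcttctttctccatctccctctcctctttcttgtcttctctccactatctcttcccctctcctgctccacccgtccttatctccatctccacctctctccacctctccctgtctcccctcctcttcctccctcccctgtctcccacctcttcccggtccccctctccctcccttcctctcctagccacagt
Fgf10: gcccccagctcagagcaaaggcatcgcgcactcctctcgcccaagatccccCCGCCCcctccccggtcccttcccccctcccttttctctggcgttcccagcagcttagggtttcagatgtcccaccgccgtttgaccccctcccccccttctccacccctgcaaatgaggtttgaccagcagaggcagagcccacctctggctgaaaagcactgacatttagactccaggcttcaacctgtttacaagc
The motifs searched were GGTGTGA (a T-box core), CCGGAA (an ETS core), GGGCGG (the GC box), CCAAT and TATAAA, and no match overlapped another. The Fgf4 window held 2 GC boxes and 1 CCAAT box on the opposite strand, that of Fgf10 held 1 GC box on the opposite strand, and that of Fgf3 held no match. Among 32851 promoter windows of the same length, 32.7% held a GC box, 33.8% a CCAAT box, 12.4% a TATAAA, 12% an ETS core and 3.33% a T-box core. The content of G and C was 71.2% in the Fgf4 window, 55.2% in that of Fgf3 and 61.2% in that of Fgf10, beside a median of 52.4% over all windows. These matches describe the windows only.

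Fgf15, the mouse counterpart of human FGF19 and best known as a gut hormone that limits bile acid synthesis, closes the cluster on chromosome 7, 30.9 kb downstream of Fgf4 (XLOC_063386, positions 144896532 to 144900953, plus strand). ESC libraries had 20.4, 13.8, 11.5 and 17.3 CPM of Fgf15, Eo- libraries 25.1, 22.2, 28.4 and 28.5 CPM, and Eo+ libraries 58.9, 48.8, 22.2 and 48.8 CPM. Eo+ replicates 1, 2 and 6 stood above every other one, whereas Eo+ replicate 5 fell within the Eo- range. Fgf15 rose 2.74-fold in Eo+ vs ESC (log2 fold change 1.45 ± 0.28, adjusted p = 0.000323). The smaller changes of 0.75 ± 0.29 in Eo- vs ESC (adjusted p = 0.0355) and 0.70 ± 0.25 in Eo+ vs Eo- (adjusted p = 0.0340) passed. The former was lost in 5 of 8 fits that left out a library (ESC replicate 2 or 5, or Eo- replicate 1, 5 or 6; adjusted p up to 0.104), and the latter in 7 of 8, all but that without Eo+ replicate 5 (up to 0.0984), and with only the Eo- and Eo+ libraries in the fit (adjusted p = 0.0550).

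**Figure D2:**
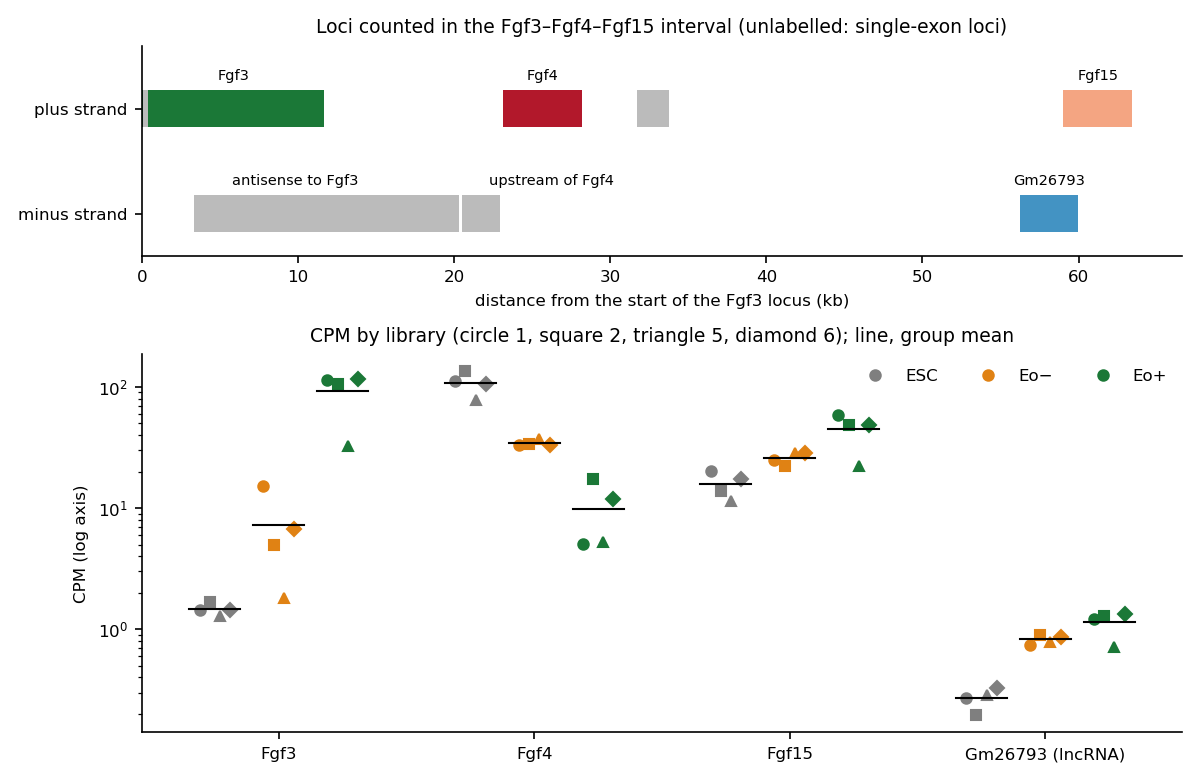
Map of the loci counted between Fgf3 and Fgf15, by strand, as distance from the start of the Fgf3 locus (top, kb), and CPM by library on a log axis for the 3 ligands and the lncRNA Gm26793 (bottom). The 3 genes lie within 63.5 kb; from ESC to Eo+ Fgf4 falls, while Fgf3, Fgf15 and Gm26793 rise in their group means.

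The other loci counted in this 63.5 kb interval averaged at most 1.14 CPM in any group. Gm26793, an annotated long noncoding RNA (lncRNA) on the minus strand that overlaps the 5′ end of Fgf15 head to head, averaged 0.268 ± 0.0541 CPM (SD, n = 4) over the ESC libraries, 0.822 ± 0.0690 over the Eo- and 1.14 ± 0.288 over the Eo+ libraries. Gm26793 rose in Eo- vs ESC (1.64 ± 0.26, adjusted p = 9.42e-05) and in Eo+ vs ESC (2.08 ± 0.25, adjusted p = 5.34e-06), with no call between the fractions (0.44 ± 0.21, adjusted p = 0.108). A minus-strand locus with 1 exon just upstream of Fgf4 had 146 to 233 counts in ESC, 55 to 111 in Eo- and 8 to 30 in Eo+ libraries, and a locus antisense to Fgf3 had 45 to 108, 19 to 47 and 4 to 12 counts. Neither of these latter loci was among those tested, and all 3 were picked after their values were seen. Counting used the strand, so reads assigned to the minus strand did not enter the counts of the ligands. Crossing of reads between strands was not measured.

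Fgf10, a ligand of limb, lung and second heart field, is on chromosome 13 (XLOC_018864, positions 118669791 to 118792149, plus strand). ESC libraries had 3.20, 1.31, 2.85 and 1.65 CPM of Fgf10 and Eo- libraries 7.39, 2.2, 1.66 and 2.46 CPM. Eo+ libraries had 91.1, 61.9, 44.7 and 77.5 CPM, clear of all others. The rise was 31.4-fold over ESCs (log2 fold change 4.97 ± 0.42, adjusted p = 1.57e-07) and 23.0-fold over Eo- cells (4.53 ± 0.39, adjusted p = 1.69e-06). No difference was called between Eo- cells and ESCs, whose libraries overlapped (0.45 ± 0.53, adjusted p = 0.477). Without Eo- replicate 1, the highest of its group, that log2 difference was -0.03.

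Marker genes of other cell types moved with Fgf10 and Fgf3 between the libraries of a group. In ESCs Fgf10 was higher in replicates 1 and 5, where the summed CPM of 15 feeder fibroblast markers was 503 and 492, than in replicates 2 and 6, where it was 238 and 184, and all of the 15 genes but Pdgfrb and Lum had their highest levels in replicates 1 and 5. Across the fractions that sum was 44.7 to 57.0 CPM in Eo- and 56.1 to 101 CPM in Eo+ libraries, and 12 of its 14 tested genes were lower in each fraction than in ESCs. In Eo+ cells the feeder sum was 101, 84.1, 60.0 and 56.1 CPM in replicates 1, 6, 2 and 5, which was also the order of Fgf10. Of the feeder genes only Fbln2, Col1a1 and Twist2 had that full order. The summed CPM of 6 blood and endothelial markers had it too, at 407, 323, 197 and 91.8 CPM. Kdr, a receptor of early mesoderm and endothelium (291, 264, 168 and 71.3 CPM in that order), and Tal1 (83.9, 54.6, 26.8 and 13.0 CPM) made up most of that sum and set its order, whereas the other 4 genes ordered the replicates differently, with Gata1 and Hbb-bh1 second highest in replicate 5. In Eo- cells Fgf3 and Fgf10 likewise followed the order of the blood and endothelial sum, which was 215 CPM in replicate 1 and 16.9 to 35.2 CPM in the others. All 6 genes were highest in replicate 1, but only Tal1 and Hba-x had the full order. Of the mesendoderm markers T, Wnt3 and Evx1 had it as well, whereas the sum and the other genes of that list did not. ESC libraries had 3.62 to 6.35 CPM of the 6 blood and endothelial genes, of which 3 were called higher in Eo+ cells than in ESCs and 5 in Eo- cells. No marker of the feeder or the blood and endothelial list was at 0 in every library of a group. These orders were noticed after the values were seen, and the part of such cells in the levels of Fgf10 and Fgf3 was not tested.

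Fgf8, the ligand of the primitive streak, rose in both fractions. ESC libraries had 29.5, 47.6, 64.9 and 18.7 CPM of Fgf8, Eo- libraries 91.1, 104, 55.1 and 82.0 CPM, and Eo+ libraries 108, 168, 180 and 159 CPM. ESC replicate 5 exceeded Eo- replicate 5, and the Eo+ libraries lay above all others. Fgf8 rose 4.13-fold in Eo+ cells over ESCs (log2 fold change 2.05 ± 0.30, adjusted p = 3.59e-05), 2.22-fold in Eo- cells over ESCs (1.15 ± 0.31, adjusted p = 0.00565) and 1.86-fold between the fractions (0.90 ± 0.28, adjusted p = 0.0180). The last call was lost without Eo- replicate 5 (0.71, adjusted p = 0.0598), although Fgf8 was higher in Eo+ cells in all 4 same-numbered pairs. Within ESCs the order of replicates (5, 2, 1 and 6) was that of the summed CPM of 9 mesendoderm markers, which was 324, 190, 178 and 101 CPM. Of this sum T alone made up 196, 95.7, 92.6 and 41.8 CPM. Only T and Wnt3 of the 9 had the full order. Mixl1, Gsc, Lhx1, Mesp1 and Evx1 were higher in replicate 1 than in replicate 2, Eomes was highest in replicate 2, and Tbx6 was lowest in replicate 5. The sums of the 9 markers reached 268 to 571 CPM in Eo- and 1894 to 3245 CPM in Eo+ libraries. This order, too, was noticed after the values were seen and was not tested.

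The Fgf8 locus (XLOC_036811) runs from 45721078 to 45746690 on the minus strand of chromosome 19, whereas the annotated gene spans only 6118 bp within it, from 45736798 to 45742915. Its summed exon length of 20238 bp is 17.3 times the longest annotated Fgf8 transcript of 1168 bp, so its level per length is uncertain. The locus of Mgea5 and Npm3, which lies upstream of Fgf8 on the same strand, ends 440 bp before the Fgf8 locus and had 335 ± 22.0, 377 ± 15.4 and 445 ± 28.9 CPM in ESC, Eo- and Eo+ libraries (SD, n = 4 each). Its part in the counts of the Fgf8 locus was not tested.

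The locus that holds Fgf17, a ligand of the Fgf8 subfamily, together with Dmtn and Fam160b2 had 135 to 180 CPM in ESC, 50.4 to 72.6 CPM in Eo- and 34.0 to 43.3 CPM in Eo+ libraries, without overlap between the groups. It fell by 1.93 ± 0.12 on the log2 scale in Eo+ vs ESC (adjusted p = 1.26e-08), by 1.37 ± 0.12 in Eo- vs ESC (adjusted p = 4.60e-07) and by 0.56 ± 0.13 in Eo+ vs Eo- (adjusted p = 0.00272). These values belong to the joined locus, which runs on the minus strand of chromosome 14.

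**Figure D3:**
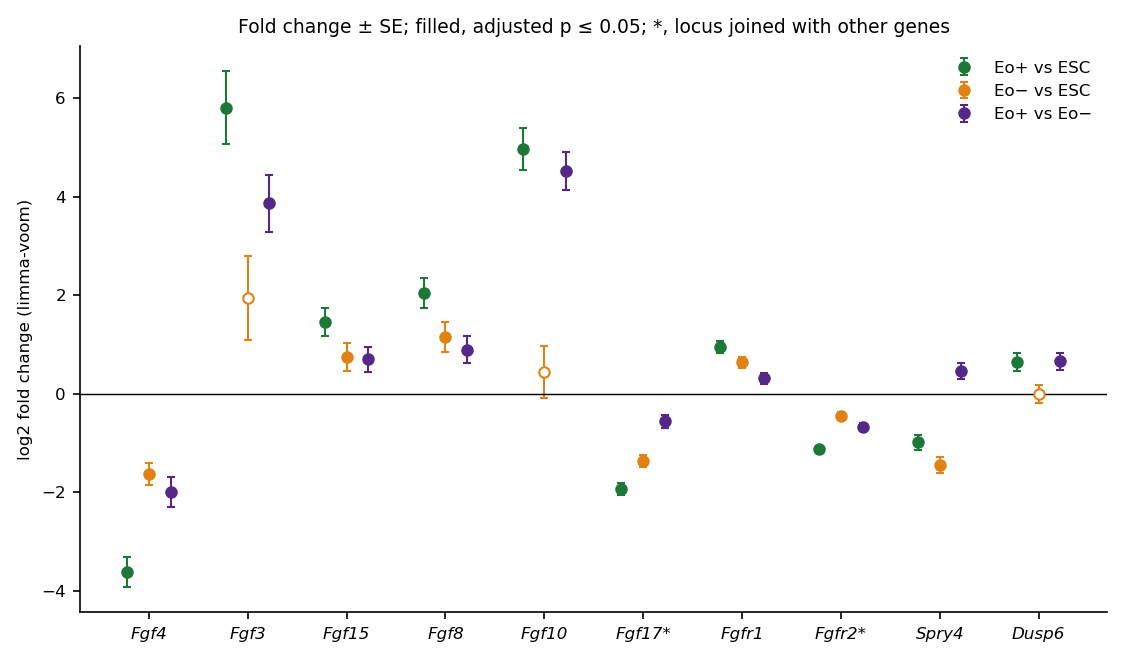
Log2 fold change of each member in the 3 comparisons with its standard error, filled where the adjusted p was at most 0.05 and starred where the locus holds other genes. Fgf3, at 5.81, and Fgf4, at -3.62, mark the ends of the range, and the open points are Fgf3, Fgf10 and Dusp6 in Eo- vs ESC.

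To compare ligands with each other, counts were divided by exon length (FPKM, the CPM per kilobase of exon), and each ligand's share of the FPKM summed over 22 ligand loci was taken. These loci include Fgf11, Fgf12, Fgf13 and Fgf14 of the intracellular subfamily, each at most 3.57% on average in a group. Fgf4 made up 45.2% ± 6.60 of the ligand RNA in ESCs, 12% ± 0.413 in Eo- cells and 2.09% ± 1.23 in Eo+ cells (SD, n = 4 each). Fgf5, the ligand of the primed epiblast, held 46.7% ± 3.97 in Eo- and 45.9% ± 12.9 in Eo+ cells after 7.62% ± 5.14 in ESCs. The shares of Fgf3 and Fgf10 were 0.293% ± 0.0197 and 0.674% ± 0.282 in ESCs, 1.23% ± 1.05 and 0.863% ± 0.719 in Eo- cells, and 9.22% ± 4.06 and 10.2% ± 3.15 in Eo+ cells. Both Eo- means were raised by replicate 1, with 2.71% and 1.93% against 0.281% to 1.12% and 0.385% to 0.608% in the other Eo- libraries. The joined Fgf17 locus took 16.3% ± 1.40, 5.26% ± 0.858 and 2.15% ± 0.206. Fgf15 held 13.1% ± 3.22, 17.9% ± 2.05 and 18.7% ± 6.78, and Fgf8 3% ± 1.64, 5.14% ± 1.38 and 5.71% ± 1.09. Summed FPKM of the ligand loci was 60.8 to 74.3 in ESC, 75.2 to 85 in Eo- and 130 to 135 in Eo+ libraries, without overlap between the groups. The loci of Fgf2 and Fgf20 are joined as well, with Bbs12 and with Mir7666. Over the 19 single-gene loci alone Fgf4 held 55.6% ± 7.76 in ESCs, 13.0% ± 0.365 in Eo- and 2.18% ± 1.28 in Eo+ cells.

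**Figure D4:**
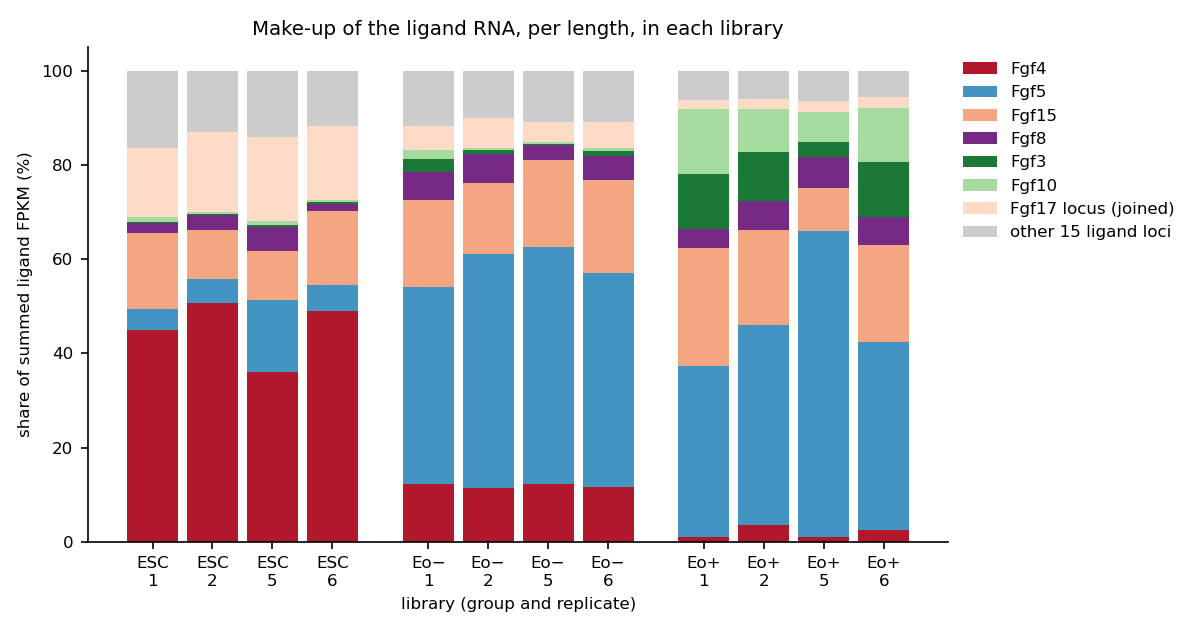
Share of the summed ligand FPKM (%) taken by the 6 member ligands, Fgf5 and the other 15 ligand loci in each library. With the assembled exon lengths used here, Fgf4 leads in the 4 ESC libraries (36.0% to 50.8%) and Fgf5 in all 8 day 3 libraries (36.2% to 64.9%), an order that changes with annotated lengths; Fgf3 and Fgf10 take visible shares in Eo+ cells.

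In a two-sided exact permutation test the Fgf4 share differed between all pairs of groups with p = 0.0286, the smallest that 4 against 4 libraries allow. Over the 12 share tests made, the adjusted p was 0.0571, so that no share difference passed after adjustment. Fgf8 and Fgf15 gave adjusted p-values of 0.0980 to 0.771 in these tests. These shares depend on the length assigned to each locus. Taking the longest annotated transcript as length moved the share of Fgf8 to 23.8% ± 9.53, 40.5% ± 6.86 and 42.0% ± 6.06 and that of Fgf4 to 26.1% ± 6.39, 6.59% ± 0.991 and 1.03% ± 0.567, with Fgf5 at 26.1% in Eo- and 23.3% in Eo+ cells. Fgf15 then held 6.50% ± 2.35, 8.41% ± 1.67 and 8.07% ± 3.28, and in Eo+ cells Fgf10 held 5.47% ± 1.99 and Fgf3 13.0% ± 5.95. In ESCs the joined Fgf17 locus was then at 26.6% ± 2.08, next to Fgf4, and in ESC replicate 5 Fgf8 had 36.4% against 17.0% for Fgf4. Which ligand ranks highest in a group thus rests on the lengths used.

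Fgfr1, the receptor needed for mesoderm to leave the streak, rose from ESC to Eo- and Eo+ cells. The Fgfr1 locus (XLOC_066841, chromosome 8, positions 25513580 to 25579475, plus strand) had 74.9, 77.2, 70.3 and 71.2 CPM in ESC, 113, 121, 106 and 117 CPM in Eo-, and 129, 176, 112 and 159 CPM in Eo+ libraries. All 8 day 3 libraries exceeded all ESC libraries, while the fractions overlapped. The log2 fold changes were 0.95 ± 0.12 in Eo+ vs ESC (adjusted p = 5.86e-06) and 0.64 ± 0.12 in Eo- vs ESC (adjusted p = 0.000358). Eo+ cells had 1.24-fold more Fgfr1 RNA than Eo- cells (0.31 ± 0.11, adjusted p = 0.0354), in all 4 same-numbered pairs, but this call was lost without Eo- replicate 1, 5 or 6 or Eo+ replicate 2 or 6 (adjusted p up to 0.103) with a filter of 1 CPM (adjusted p = 0.0521) and with only the Eo- and Eo+ libraries in the fit (adjusted p = 0.0649).

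The locus that joins Fgfr2, the receptor of trophoblast and epithelia, with Ctbp2 went the other way. Its levels were 318 to 356 CPM in ESC, 235 to 252 CPM in Eo- and 143 to 182 CPM in Eo+ libraries, without overlap, and its log2 fold change in Eo+ vs ESC was -1.13 ± 0.07 (adjusted p = 1.76e-08). Fgfr3 and Fgfr4, the remaining receptors, stayed at 0.654 to 4.54 CPM in every library. Fgfr3 was lower in Eo- cells than in ESCs (-0.72 ± 0.29, adjusted p = 0.0436), and no other difference of Fgfr3 or Fgfr4 passed. Over Fgfr1, Fgfr3 and Fgfr4 alone, Fgfr1 made up 85.8% ± 2.45 of the receptor FPKM in ESCs, 93.7% ± 0.730 in Eo- and 91.4% ± 4.82 in Eo+ cells. With the joined Fgfr2 locus included, its share was 22.3% ± 0.996, 38% ± 1.32 and 53.3% ± 8.24, with an adjusted p of 0.0571 in each exact permutation test. With annotated lengths that share was 11.2% ± 0.579, 21.2% ± 0.981 and 34.6% ± 6.98, and in Eo+ cells the joined Fgfr2 locus then held 62.9% ± 6.23. The order of the fractions thus turned with the inclusion of that locus.

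Spry4, a Sprouty protein that restrains Ras activation, fell in both fractions. ESC libraries had 127, 94.3, 89.0 and 110 CPM of Spry4 (XLOC_034328, chromosome 18, minus strand), Eo- libraries 39.6, 41.5, 31.5 and 40.6 CPM, and Eo+ libraries 45.2, 68.6, 40.8 and 60.2 CPM. Every day 3 library lay below every ESC library, and the fractions overlapped. Spry4 fell by 1.45 ± 0.16 on the log2 scale in Eo- vs ESC (adjusted p = 4.45e-06) and by 0.99 ± 0.16 in Eo+ vs ESC (adjusted p = 6.23e-05). Eo+ cells were above Eo- cells by 0.46 ± 0.17 (adjusted p = 0.0358) and in all 4 same-numbered pairs, a call that was lost without Eo- replicate 5 or 6 or Eo+ replicate 2 or 6 (adjusted p up to 0.108).

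Dusp6, a cytoplasmic phosphatase of Erk, did not follow Spry4. The Dusp6 locus (XLOC_006576, chromosome 10, positions 99263231 to 99267488, plus strand) had 124, 88.5, 132 and 97.7 CPM in ESC, 116, 111, 89.8 and 120 CPM in Eo-, and 127, 238, 147 and 193 CPM in Eo+ libraries. ESC and Eo- libraries shared a range, and of the Eo+ libraries replicate 1 lay within that of the ESCs. Dusp6 rose in Eo+ vs ESC (0.65 ± 0.18, adjusted p = 0.00574) and in Eo+ vs Eo- (0.66 ± 0.18, adjusted p = 0.00909), and its log2 difference between Eo- cells and ESCs was -0.01 ± 0.18 (adjusted p = 0.964). The rises were called in all 17 alternatives each.

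The other genes of the pathway were read from a list of 85 genes in 6 groups, of which 81 were tested. From ESC to Eo+ cells 62 of 81 passed, 42 higher and 20 lower. For Eo- cells against ESCs 58 of 81 passed, 34 higher and 24 lower, and between the fractions 53 of 81, 38 higher in Eo+ and 15 lower. These are 76.5%, 71.6% and 65.4% of the list, beside 71.9%, 62.2% and 47.7% of all loci. Of the 81, 9 lie in joined loci, and without them the shares were 76.4%, 70.8% and 66.7%. The median absolute log2 fold change of the list was 0.71, 0.60 and 0.54.

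Among the other 15 genes of the ligand list tested, which include Fgf11 to Fgf14, 14 passed in Eo+ vs ESC (8 higher), 12 in Eo- vs ESC (8 higher) and 9 between the fractions (5 higher). Fgf5 rose 13.4-fold in Eo+ vs ESC (log2 fold change 3.74 ± 0.29, adjusted p = 7.24e-08) and 8.45-fold in Eo- vs ESC (3.08 ± 0.29, adjusted p = 1.19e-06), from 9.41 to 27.9 CPM in ESCs to 93.5 to 127 CPM in Eo- and 140 to 261 CPM in Eo+ libraries. Among ligands that averaged 1 CPM or more in the higher of the groups compared and whose libraries did not overlap, Fgf16 had the largest rise in Eo+ vs ESC (5.30 ± 0.79, adjusted p = 3.79e-05), from 0.0322 to 1.25 CPM on average, and reached that minimum only in Eo+ cells. Its Eo+ libraries had 1.19, 0.507, 2.63 and 0.682 CPM, so that the mean rests on replicate 5 and this place among the ligands on 1 library. Fgf18 had the largest fall in each fraction, from 4.85 to 14.3 CPM in ESCs to 0.498 to 0.740 CPM in Eo- and 0.317 to 0.436 CPM in Eo+ libraries. By the same rule Fgf11, a member of the intracellular subfamily, fell most between Eo- and Eo+ cells (-1.04 ± 0.18, adjusted p = 0.000303).

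Of 8 receptors and coreceptors tested, 4, 5 and 5 passed in the 3 comparisons (2, 2 and 3 higher). Flrt3, a membrane protein that binds FGF receptors, rose in Eo+ cells, with 18.3 to 35.1 CPM against 4.67 to 6.75 CPM in ESC and 5.10 to 9.62 CPM in Eo- libraries (2.22 ± 0.27, adjusted p = 5.17e-06 and 2.00 ± 0.26, adjusted p = 4.01e-05). Fgfbp1, a carrier that releases FGFs from the matrix, fell by 3.46 ± 0.33 in Eo+ vs ESC (adjusted p = 5.47e-07) and by 2.01 ± 0.26 in Eo- vs ESC (adjusted p = 2.12e-05). Fgfbp3, a related carrier, was higher in Eo- cells than in ESCs (1.49 ± 0.26, adjusted p = 0.000207) and lower in Eo+ than in Eo- cells (-1.46 ± 0.26, adjusted p = 0.000433).

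**Figure D5:**
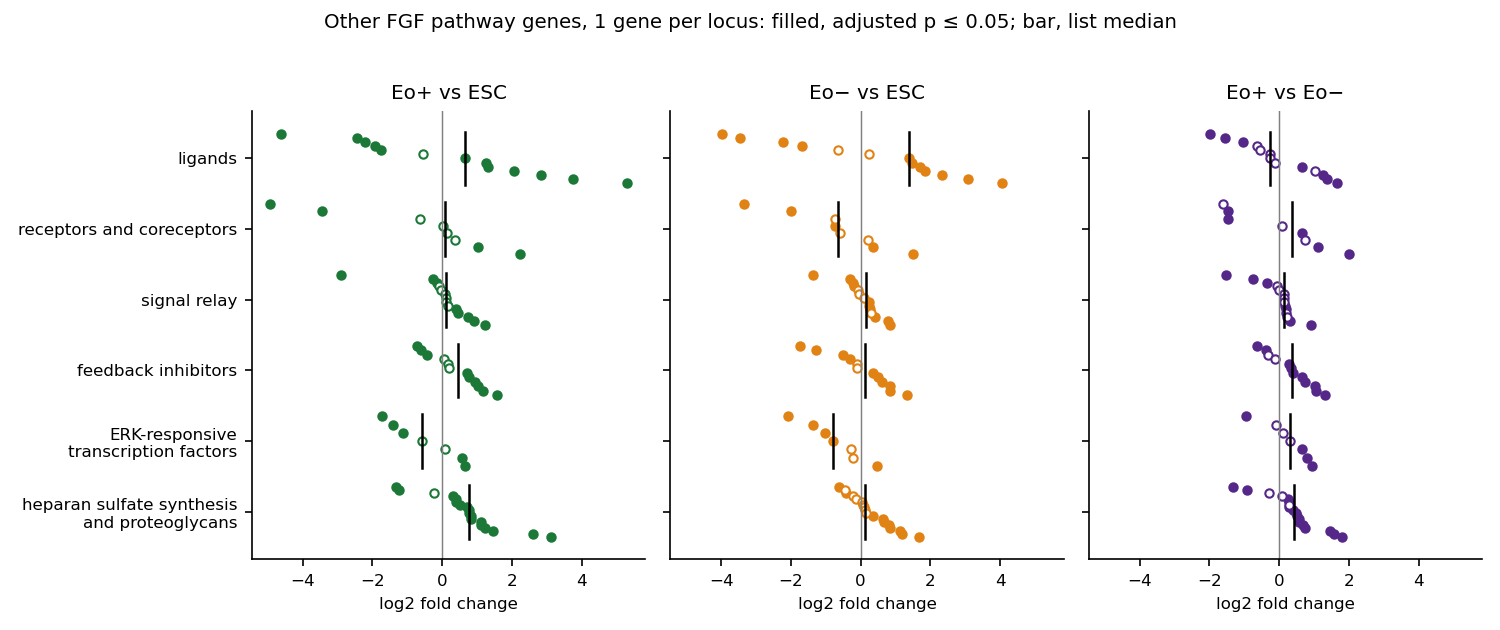
Log2 fold change of the other FGF pathway genes, each in a locus of its own, in 6 lists and 3 comparisons; filled points passed the test and bars mark the list median. Points of the signal relay list cluster near 0 (median absolute log2 fold change 0.22, 0.25 and 0.20), except Gab1 at -2.90 in Eo+ vs ESC.

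Most genes of the signal relay changed by small amounts. Of its 19 genes 11, 14 and 8 passed, with a median absolute log2 fold change of 0.23, 0.26 and 0.17, below those of all loci. Gab1, a docking protein of receptor tyrosine kinases, changed most. It had 203 to 265 CPM in ESC, 86.0 to 93.3 CPM in Eo- and 27.1 to 36.6 CPM in Eo+ libraries and fell by 2.90 ± 0.10 in Eo+ vs ESC (adjusted p = 1.11e-10). Braf, a Raf kinase, rose in Eo+ cells by 1.23 ± 0.13 over ESCs (adjusted p = 1.29e-06) and by 0.92 ± 0.13 over Eo- cells (adjusted p = 5.77e-05).

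Among the other feedback inhibitors some rose and some fell. Of 13 tested 10 passed in Eo+ vs ESC (7 higher, 3 lower), 11 in Eo- vs ESC (7 higher, 4 lower) and 11 between the fractions (8 higher, 3 lower). Spry2 fell in both fractions (-0.60 ± 0.13, adjusted p = 0.000649 in Eo+ vs ESC, and -0.49 ± 0.12, adjusted p = 0.00344 in Eo- vs ESC). The Erk phosphatase Dusp4 rose in both (1.58 ± 0.21, adjusted p = 9.68e-06, and 0.85 ± 0.21, adjusted p = 0.00291), whereas Dusp5 fell in both, most in Eo- cells (-1.73 ± 0.19, adjusted p = 3.39e-06). Dusp7 had the largest rise in Eo- vs ESC (1.33 ± 0.09, adjusted p = 8.14e-08), Dusp9 the largest in Eo+ vs Eo- (1.32 ± 0.29, adjusted p = 0.00227), and Spry1 the largest fall there (-0.63 ± 0.14, adjusted p = 0.00205).

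Transcription factors that respond to Erk did not move together. Of 7, 5 passed in Eo+ vs ESC (2 higher, 3 lower), 5 in Eo- vs ESC (1 higher, 4 lower) and 4 between the fractions (3 higher, 1 lower). Etv5 fell stepwise, with 426 to 534 CPM in ESC, 266 to 294 CPM in Eo- and 114 to 184 CPM in Eo+ libraries (-1.74 ± 0.12 in Eo+ vs ESC, adjusted p = 1.90e-08). Etv4, its close relative, had 63.8 to 117 CPM over all 12 libraries and passed in no comparison (adjusted p = 0.146 to 0.640). Egr1 fell most in Eo- vs ESC (-2.07 ± 0.19, adjusted p = 9.41e-07), Etv1 had the largest rise in each fraction without overlap (0.56 ± 0.12 and 0.46 ± 0.12, adjusted p = 0.000952 and 0.00551), and Myc the largest in Eo+ vs Eo- (0.95 ± 0.15, adjusted p = 0.000210).

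Heparan sulfate, the cofactor of FGF binding, was represented by 19 genes, most of which were called higher in Eo+ cells. Of the 19 genes for its synthesis and its core proteins 16 were higher and 2 lower in Eo+ vs ESC, 8 higher and 3 lower in Eo- vs ESC, and 14 higher and 2 lower when Eo+ was set against Eo-. The share passing was 94.7%, 57.9% and 84.2%, beside 71.9%, 62.2% and 47.7% of all loci, of which 35.8%, 30.9% and 23.0% were higher. Gpc3, a glypican core protein, had 60.9 to 84.9 CPM in ESC, 111 to 184 CPM in Eo- and 357 to 639 CPM in Eo+ libraries (1.79 ± 0.18 in Eo+ vs Eo-, adjusted p = 5.95e-06). Its relative Gpc6 rose most in each fraction over ESCs (3.13 ± 0.19, adjusted p = 9.43e-09 in Eo+, and 1.66 ± 0.21, adjusted p = 1.37e-05 in Eo-). Hs6st1, a sulfotransferase, and Sdc4, a syndecan, were the pair that fell in Eo+ vs ESC, by 1.33 ± 0.11 (adjusted p = 1.64e-07) and 1.23 ± 0.18 (adjusted p = 3.17e-05), and Sulf2, a sulfatase, fell most in Eo- vs ESC (-0.61 ± 0.10, adjusted p = 0.000137).

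Genes with the most similar profile were looked up for Fgf4, Fgf8, Fgf15 and Spry4, as the smallest root mean square difference in centred log2(CPM + 0.1) over the 12 libraries among 11792 single-gene protein-coding loci. For Fgf4 they were Rapsn, Rinl and Rnf17 (differences of 0.379, 0.409 and 0.413). For Fgf8 they were Apln, Arhgef5 and Piezo2 (0.227, 0.248 and 0.259), and for Fgf15 Lrp1, Boc and Emilin2 (0.268, 0.274 and 0.303). Spry4 was nearest to Hspb8, Mpc1 and Npr1 (0.143, 0.178 and 0.180).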

How the data were processed

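Poly(A) RNA libraries, read as stranded 2 × 100 nt pairs, were mapped by the authors to mm10 with STAR, transcripts were assembled with Cufflinks and Cuffmerge 2.2.1 on the Ensembl annotation, and HTSeq 0.6.1 counted strand-aware per merged locus. The deposited table holds these raw counts of 80012 loci, and 0 of its columns belong to other samples. Whether a count is a read or a pair is not given in the sources used here, and the totals exceed the reads per sample stated in the labels, so each mate may have been counted. HTSeq set aside 22.4% to 26.2% of alignments as not unique, so near-identical genes lose reads. The authors' normalised table was not used.

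Protein-coding loci (14216), annotated lncRNAs (993) and multi-exon non-annotated lncRNAs (2713) with a group mean above 0.1 FPKM were tested. For this filter FPKM was taken as counts per library total and exon length, without TMM scaling. Counts were analysed with limma 3.58.1 voom and TMM-scaled totals from edgeR 4.0.16 in R 4.3.3, with 1 mean per group over all 12 libraries, two-sided. The statistics scripts were tested on simulated data. Alternatives were other scalings, filters, tests (edgeR, DESeq2 1.42.0), sample sets, lengths, a 2-fold threshold, a replicate block and leaving out each library.

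Members, lists and tests were chosen with earlier results of these data known. Besides the members, the text names, per list and comparison, the called gene with the largest rise and fall, at least 1 CPM and no overlap of libraries, and Fgf5, Fgfr3, Fgfr4, Spry2, Etv4 and Etv5. Not every result selected in this way is reported here. Genes of similar profile were named, by the rule set for the report, for Fgf4, Fgf8, Fgf15 and Spry4.

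Same-numbered Eo- and Eo+ libraries deviated together from their group means (correlations 0.634, 0.316, 0.348 and 0.355), so the numbers were taken to pair the fractions, whereas those of ESC with either fraction ranged from -0.122 to 0.352. Replicates within groups differed beyond sampling noise in all 18 pairs. Nothing states that replicates are separate lines, so p-values cover the spread between these differentiations. Intervals of counts cover counting error only.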

Additional observations from a re-analysis of the deposited data

Results flagged for a closer look

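In 5 of 30 sets of 4 libraries (10 members in 3 groups), 1 library stood apart from the other 3 by Dixon's criterion at 95%, which chance alone meets in about 1 of 20 sets. Fgf3 was low in Eo+ replicate 5 (32.5 CPM, others 105 to 116). Fgf10 was high in Eo- replicate 1 (7.39 CPM, others 1.66 to 2.46), where the blood and endothelial sum was 215 CPM (others 16.9 to 35.2). Fgf4 was high in Eo- replicate 5 (37.3 CPM, others 33 to 33.6). The Fgf17 locus was low in Eo+ replicate 1 (34.0 CPM, others 42.4 to 43.3), and the Fgfr2 locus was low in Eo- replicate 1 (235 CPM, others 249 to 252). In Eo+ replicate 5 the summed primed epiblast markers, which include Fgf5, were at 1547 CPM (others 915 to 1012) and the definitive endoderm markers at 723 CPM (others 473 to 523), of which Cer1 had 392 CPM (others 185 to 248), while Cxcr4 of the same list was lowest there (54.4 CPM, others 84.3 to 98.7). The blood and endothelial sum was lowest there (91.8 CPM) through Kdr and Tal1, whereas Gata1 and Hbb-bh1 were second highest. The part of these cells in the member levels was not tested.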

How the results depend on the processing

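Of 30 member fold changes, 22 kept direction and side of the threshold in all 17 alternatives. The remaining ones are changes of Fgf3, Fgf10, Fgf15 and Dusp6 in Eo- vs ESC and of Fgf8, Fgf15, Fgfr1 and Spry4 in Eo+ vs Eo-. The uncalled Dusp6 difference in Eo- vs ESC turned to 0.062 with library totals and 0.049 without an expression filter, and ranged from -0.112 to 0.0813 as libraries were left out (positive without ESC replicate 1, ESC replicate 5 or Eo- replicate 5). That of Fgf10 ranged from -0.0258, without Eo- replicate 1, to 0.702. The cause was not tested.

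Requiring a 2-fold change left 7, 4 and 3 members in Eo+ vs ESC, Eo- vs ESC and Eo+ vs Eo-, 32, 24 and 18 of the other pathway genes, and 6830, 5069 and 3789 of all loci (38.1%, 28.3% and 21.1%). Leaving out libraries gave 10, 6 to 7 and 6 to 10 members.

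With CPM in place of FPKM the adjusted p was 0.049 for the share of Fgf4 (-28.0, -20.0 and -8.01 percentage points), of Fgfr1 (29.6, 13.7 and 15.9) and of Fgf8 in Eo+ vs ESC (13.8). The exact permutation p of the Fgf4 and Fgfr1 shares was 0.0286 with FPKM and with CPM alike. Their adjusted p fell only because the p of Fgf8 in Eo+ vs ESC reached 0.0286 too. The Fgf15 share in Eo+ vs Eo-, 0.749 points higher, became -0.0804 points with CPM, -0.0206 over single-gene loci and -0.342 with annotated lengths, and ranged from -1.38, without Eo+ replicate 1, to 3.94, without Eo+ replicate 5, as libraries were left out, where that of Fgf8 ranged from -0.0717, without Eo- replicate 5, to 1.11, and that of Fgfr1 -2.28 points over single-gene loci. The last settings, like single-gene counts, were added after seeing the data.

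With the replicate block, the pairing of the fractions left all 10 members called in Eo+ vs Eo- (61 other pathway genes, 9555 loci) and all 10 in Eo+ vs ESC, while Fgf3 in Eo- vs ESC passed (8 members called, adjusted p = 0.000211); it changed no other member's call. Exact sign flips over 4 pairs cannot go below p = 0.125, so no blocked share test could pass. Depth was not limiting for the members, whose lowest count was 962.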

Other observations

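Fgf3, Fgf10, Fgfr1 and Dusp6 were outside the rule by which genes of similar profile were named, and are given after their values were seen. The nearest loci to Fgf3 were Adamtsl2, Gata4 and Bmper (root mean square differences of 0.482, 0.534 and 0.562), and Gata4, a factor of cardiac mesoderm and endoderm, averaged 2.50 CPM in ESC, 5.87 in Eo- and 150 in Eo+ libraries. The nearest to Fgf10 were Bace2, Rgs5 and Cxcr4 (0.391, 0.407 and 0.420), with Cxcr4, a chemokine receptor of endoderm and mesoderm, at 2.49, 4.99 and 83.5 CPM. Fgfr1 was nearest to Vav2, Mlxip and Ralgps2 (0.0669, 0.0820 and 0.106), and Dusp6 to Il17ra, Rai14 and Ext1 (0.165, 0.172 and 0.173).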
